A study of Mus musculus with 3 samples.

Results

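The BCL2 family sets whether a cell keeps its mitochondrial outer membrane closed or opens it and dies by apoptosis. In mouse blastocysts, 10 of its genes were read here: the pro-survival members Bcl2, Bcl2l1, Bcl2l2 and Mcl1, the effectors Bax, Bak1 and Bok, and the BH3-only members Bid, Bad and Bcl2l11. They were found as all array probes, besides controls, whose RefSeq transcript is assigned to 1 of these genes. The rule gave 19 of 56605 probes, each spotted once per array, and all 10 genes had at least 1 probe, among 23462 genes named on the array.

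The study hybridised 3 single-colour expression arrays, each with RNA from a pool of 30 blastocysts of ICR mice, an outbred strain. The mothers of the young blastocysts were 3 to 6 weeks old and those of the aging blastocysts 43 to 53 weeks old, and neither group of embryos was treated. Suppressed aging blastocysts were from mothers of 43 to 53 weeks too, and were grown with an anti-CXCL5 neutralizing antibody at 10 μg/ml together with a CXCR2 selective antagonist at 10 nM, which act against a chemokine and its receptor. In all 3 conditions the females were superovulated and mated, and zygotes were cultured in KSOM medium for 96 h. The antibody and the antagonist were given together, so the array cannot separate them, and no array of treated young blastocysts was analysed here. With 1 array per condition there is no replicate check and no test between conditions was made, and every difference below is only as precise as 3 single arrays allow. The condition cannot be told apart from the animals, the embryos or the handling of its pool.

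In the family, BH3-only proteins sense damage or lack of growth signals and act on the other members. Pro-survival members bind BH3-only proteins and effectors and hold them inactive, and effectors that are set free form pores in the mitochondrial outer membrane, through which cytochrome c leaves to start the caspases. The blastocyst is a stage at which some cells normally die, many of them in the inner cell mass. The arrays read mRNA, whereas much of the control of these proteins takes place by binding, cleavage, phosphorylation and turnover, none of which was measured.

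Levels are log2 intensities relative to the 75th percentile of the same array, so a level of 0 equals that percentile. A difference is the level in the first named condition minus that in the other, and a probe counts as past 2-fold where the difference is beyond 1 in either direction. Apart from numbering the probes of a gene from the brightest, levels of different probes were not set against each other. The detection limit, the lowest level of any probe that the scanner software marked as above background, was -4.20 in young, -4.32 in aging and -3.93 in suppressed aging blastocysts, and 58.4%, 58.7% and 56.4% of probes were marked so. The mark is set for each spot, so a probe above the limit can lack it, and its own level is then the bound. Markers of trophectoderm (8 of 8), inner cell mass and epiblast (6 of 6) and primitive endoderm (5 of 5) were above background on all 3 arrays. So were 4 of 4 sperm markers, and the mark alone does not identify the stage or its cells. Of the member probes, 17 of 19 were above background on all 3 arrays. The other 2 were below it on all 3, namely Bcl2 probe 2, at levels from -6.53 to -6.27, and Bcl2l11 probe 4, at -6.29, -5.48 and -4.01.

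Across the 17 measured probes, 11 had the lowest of their 3 levels in young blastocysts and 6 in aging ones, and 0 in suppressed aging ones. The 11 include all 5 Bcl2l1 probes, so they are not 11 separate genes. No such count was made over all probes, so these counts describe the member probes only. The highest level was that of young blastocysts for 3 probes, of aging blastocysts for 8 and of suppressed aging blastocysts for 6. The 3 that were highest in young blastocysts belonged to Bak1, Bid and Bcl2l11. The 8 that were highest in aging blastocysts were 3 of 5 Bcl2l1 probes, both Bax probes, Bok, Bad and Bcl2l11 probe 1, so genes that promote cell death were in both sets.

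**Figure D1:**
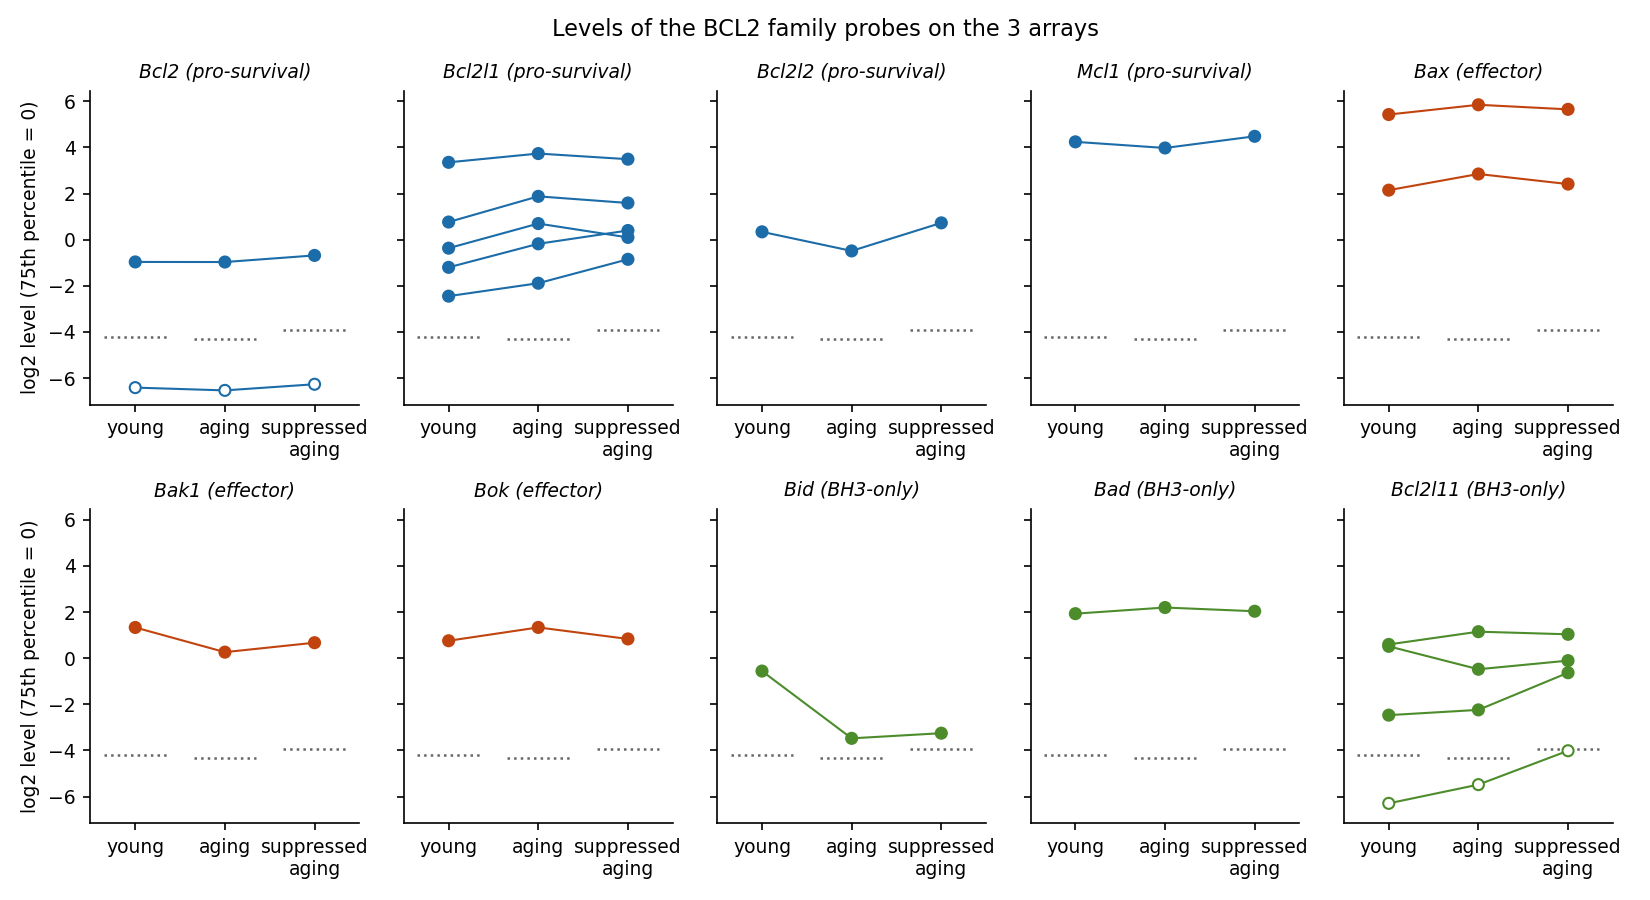
Levels of the 19 BCL2 family probes on the young, aging and suppressed aging arrays, 1 panel per gene. The vertical axis is the log2 level relative to the 75th percentile of each array, lines join the values of 1 probe, open circles are below background and dotted lines mark the detection limit of each array. Bid lay at -0.56 on the young array and at -3.47 and -3.25 on the others, close to the limit, while all 5 Bcl2l1 lines start lowest on the young array.

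Among the pro-survival genes, Bcl2l1 encodes BCL-XL, a widely expressed guard of the mitochondrion, and it had 5 probes. Probe 1 (A_55_P1974877) read 3.36 in young, 3.74 in aging and 3.49 in suppressed aging blastocysts. Probe 2 (A_52_P510877) read 0.77, 1.88 and 1.59, and probe 3 (A_66_P122989) read -0.37, 0.70 and 0.10. For these 3 probes the aging array was highest and the young array lowest. Probe 4 (A_51_P299454) read -1.20, -0.18 and 0.40 in the same order, and probe 5 (A_55_P2500448) read -2.45, -1.88 and -0.85. For these last probes the level was lowest in young and highest in suppressed aging blastocysts.

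All 5 Bcl2l1 probes were thus higher in aging than in young blastocysts, by 0.38, 1.11, 1.07, 1.02 and 0.56 from probe 1 to probe 5, and the 3 middle ones passed 2-fold. They were likewise all higher in suppressed aging than in young blastocysts, by 0.14 to 1.60. Both directions held for each probe under all 8 processing alternatives. Only normexp background correction and quantile normalization can move the member probes by different amounts. The other alternatives leave these values unchanged or shift all member probes of a comparison alike. Of 21 genes that had 5 probes measured on every array, Bcl2l1 included, 1 had every probe higher in aging than in young blastocysts, Bcl2l1, and 0 had every probe lower. Between suppressed aging and young blastocysts 1 of the 21 had every probe higher, again Bcl2l1, and 1 had every probe lower, Ezh2. The probes of a gene read the same pools, so their agreement does not replicate the condition. Between suppressed aging and aging blastocysts the Bcl2l1 probes parted: probes 1, 2 and 3 were lower after suppression, by 0.24, 0.29 and 0.60, and probes 4 and 5 were higher by 0.58 and 1.04. Probes 2 and 4 carry the same RefSeq transcript as their target, so this parting was also seen within 1 transcript record. Bcl2l1 is known to be spliced into a long pro-survival and a short pro-death form, and which form each probe reads was not determined.

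Bcl2, the founding member, was read by probe 1 (A_51_P380013) at -0.96 in young, -0.97 in aging and -0.68 in suppressed aging blastocysts. The young and aging values differed by less than the scanner error of 0.21 for their difference, taken from the errors that the scanner software assigns to the spots. Suppressed aging blastocysts were 0.29 above aging ones. Mcl1, a short-lived guard that the embryo needs to implant, read 4.24, 3.98 and 4.48. It was 0.27 lower in aging than in young blastocysts and 0.51 higher in suppressed aging than in aging blastocysts. Bcl2l2, which encodes BCL-W, read 0.34, -0.48 and 0.73. Its level was lowest in aging blastocysts, 0.83 below young and 1.22, or 2.32-fold, below suppressed aging blastocysts. For Bcl2, Mcl1 and Bcl2l2 the suppressed aging array held the highest of the 3 levels. All 8 pro-survival probes measured were higher in suppressed aging than in young blastocysts, by 0.14 to 1.60 with a median of 0.43, and 5 of these 8 probes belong to Bcl2l1. Each of the 8 was also higher under all 8 alternatives, most of which leave these probes unchanged or shift them alike. Among all 34959 probes compared between these conditions, 49.8% were higher.

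Among the effectors, Bax and Bak1 are the pair of pore-forming proteins found in most cells, and they differed in opposite directions between aging and young blastocysts. Bax probe 1 (A_55_P2137406) read 5.43 in young, 5.85 in aging and 5.65 in suppressed aging blastocysts, and probe 2 (A_51_P254541) read 2.15, 2.85 and 2.41. Both probes were highest in aging and lowest in young blastocysts. The aging level was above the young level by 0.42 and 0.70, or 1.34-fold and 1.63-fold, and suppressed aging blastocysts were lower than aging ones by 0.20 and 0.44. Agreement between a pair of probes is common on these arrays: of 3680 genes that had 2 probes measured on every array, 29.9% had both probes higher in aging than in young blastocysts.

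Bak1 (A_55_P2013113) read 1.33 in young, 0.26 in aging and 0.67 in suppressed aging blastocysts. It was highest in young blastocysts, 1.07 or 2.10-fold above aging ones and 0.66 above suppressed aging ones. Bok, a less studied effector related to Bax and Bak1, read 0.76, 1.34 and 0.84. It was highest in aging blastocysts, by 0.58 over young and 0.50 over suppressed aging, and the values of young and suppressed aging blastocysts differed by 0.08, less than the scanner error of 0.21.

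Since Bax and Bak1 differed in opposite directions, the sequences just before their starts are shown. They come from RefSeq on GRCm38.p6 and cover 200 bases directly upstream of the annotated start on the minus strand, from 5′ to 3′, at chr7:45466899-45467098 for Bax and chr17:27028628-27028827 for Bak1. Capitals mark the motifs found on either strand.
Bax: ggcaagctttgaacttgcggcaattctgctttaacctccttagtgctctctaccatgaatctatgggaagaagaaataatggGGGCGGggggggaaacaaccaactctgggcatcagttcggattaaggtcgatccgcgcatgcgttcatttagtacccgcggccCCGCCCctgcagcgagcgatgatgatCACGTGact
Bak1: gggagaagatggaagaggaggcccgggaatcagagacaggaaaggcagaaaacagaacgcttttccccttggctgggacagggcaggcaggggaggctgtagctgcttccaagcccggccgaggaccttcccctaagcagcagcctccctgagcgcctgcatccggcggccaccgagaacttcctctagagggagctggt
The motifs searched on both strands were the E-box CACGTG, the GC box GGGCGG, the CCAAT box CCAAT, the TATA box TATAAA and the p53 half-site. The Bax window held 1 E-box and 2 GC boxes, which do not overlap, and the Bak1 window held none of the 5 motifs. Of 32851 mouse promoters of this length, 5.26% held the E-box, 31.0% the GC box, 29.3% the CCAAT box, 9.96% the TATA box and 5.59% the p53 half-site. The Bax window was 53.5% GC with 13 CpG sites and the Bak1 window 62.5% GC with 8, against medians of 53.0% and 5 over all promoters. Nothing was measured at either promoter, and a motif match is a description of the letters only.

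Among the BH3-only genes, Bid had the largest difference of the family. Bid encodes a protein that caspase-8 cuts and that then carries the death signal from surface receptors to Bax and Bak1. Its probe (A_52_P574653) read -0.56 in young, -3.47 in aging and -3.25 in suppressed aging blastocysts, which corresponds to intensities of 98.5, 13.9 and 12.9. The young level stood apart from both aging levels. Those were 1.80 and 1.61 times the detection limit of their arrays, whereas the young level was 12.5 times its limit. Bid was thus 7.55-fold lower in aging than in young blastocysts, a difference of -2.92, and 6.47-fold lower in suppressed aging than in young blastocysts, a difference of -2.69. Suppressed aging and aging blastocysts differed by 0.22, less than the scanner error of 0.33. The values rest on 1 probe and 1 spot per array, and no other Bid probe was there to compare. Under a different background correction (normexp with an offset), which lifts dim signals, the differences from young blastocysts were -1.24 and -1.08, still past 2-fold.

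Bad, which binds BCL-XL when growth signals are missing, read 1.93 in young, 2.20 in aging and 2.04 in suppressed aging blastocysts. Aging blastocysts were 0.27 above young ones, and the suppressed aging level lay within the scanner error of either. Bcl2l11 encodes BIM, a BH3-only protein that binds all pro-survival members, and its probes did not run alike. Probe 1 (A_55_P2504051) read 0.60, 1.15 and 1.04, lowest in young blastocysts. Probe 2 (A_52_P158527) read 0.52, -0.48 and -0.10, highest in young blastocysts. Probe 3 (A_51_P484880) read -2.47, -2.24 and -0.63, highest in suppressed aging blastocysts. The gene was therefore 0.55 higher by probe 1, 0.99 lower by probe 2 and 0.23 higher by probe 3 in aging than in young blastocysts. By probe 3 alone it passed 2-fold after suppression, 1.61 or 3.06-fold over aging and 1.84 or 3.58-fold over young blastocysts, while probes 1 and 2 differed there by -0.11 and 0.37 from aging blastocysts. Of 843 genes that had 3 probes measured on every array, 33.7% had all 3 on the same side between aging and young blastocysts.

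Taking the comparisons in turn, 11 of the 17 member probes were higher and 6 lower in aging than in young blastocysts, and the median difference was 0.38. The 11 include all 5 Bcl2l1 probes, and with 1 mean value for each gene the median was -0.037. Past 2-fold were 5 of 17: 3 higher, all of Bcl2l1, and 2 lower, Bak1 and Bid. Among all 35758 probes compared, 48.2% were higher, 21.1% were past 2-fold (9.98% higher and 11.1% lower) and the median difference was -0.03. Past 5-fold was Bid alone, beside 3.00% of all probes. Without the 5 Bcl2l1 probes, an alternative chosen after seeing the data, 2 of 12 probes were past 2-fold and the median difference was 0.11. The difference was larger than the scanner error of the probe for 15 of 17 probes here, for 13 between suppressed aging and aging and for 14 between suppressed aging and young blastocysts. That error is assigned by the scanner software and was not measured from replicates. It was 0.20 for the brightest probes alike and does not cover the spread between pools. No such count was made over all probes, so these counts do not show that the differences would recur.

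After suppression, 9 of the 17 probes were higher and 8 lower than in aging blastocysts. The median was 0.22 beside 0.02 over all 34752 probes compared, of which 51.3% were higher. Past 2-fold were 3 of 17, all higher after suppression: Bcl2l1 probe 5, Bcl2l2 and Bcl2l11 probe 3. Among all probes 19.0% were past 2-fold, 9.86% higher and 9.10% lower. The effectors all differed by less than 2-fold, with Bak1 0.41 higher and both Bax probes and Bok 0.20 to 0.50 lower. None of the 17 probes was past 5-fold, beside 2.55% of all probes.

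Between suppressed aging and young blastocysts, 14 of the 17 probes were higher and 3 lower. The median was 0.26 beside -0.0029 over all probes, of which 49.8% were higher. The 3 lower probes were those of Bid, Bak1 and Bcl2l11 probe 2. Past 2-fold were 4 of 17: Bcl2l1 probes 4 and 5 and Bcl2l11 probe 3 were higher and Bid was lower. Among all probes 18.1% were past 2-fold, 8.88% higher and 9.19% lower, and 2.51% were past 5-fold, as was Bid. Each pair of comparisons shares an array, so the counts of the 3 comparisons are not independent of each other. The share of member probes past 2-fold was 29.4% for aging against young, 17.6% for suppressed aging against aging and 23.5% for suppressed aging against young blastocysts, near the background of all probes in each. Under normexp background correction Bid alone was past 2-fold, in both comparisons with young blastocysts, and the other calls were lost, with Bcl2l1 probes 2, 3 and 4 at 0.99, 0.68 and 0.60 and Bak1 at -0.88 between aging and young blastocysts. Bcl2l11 probe 3, Bcl2l2 and Bcl2l1 probe 5 were then at 0.88, 0.74 and 0.62 against aging blastocysts, and Bcl2l1 probes 4 and 5 and Bcl2l11 probe 3 at 0.97, 0.91 and 0.90 against young ones.

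**Figure D2:**
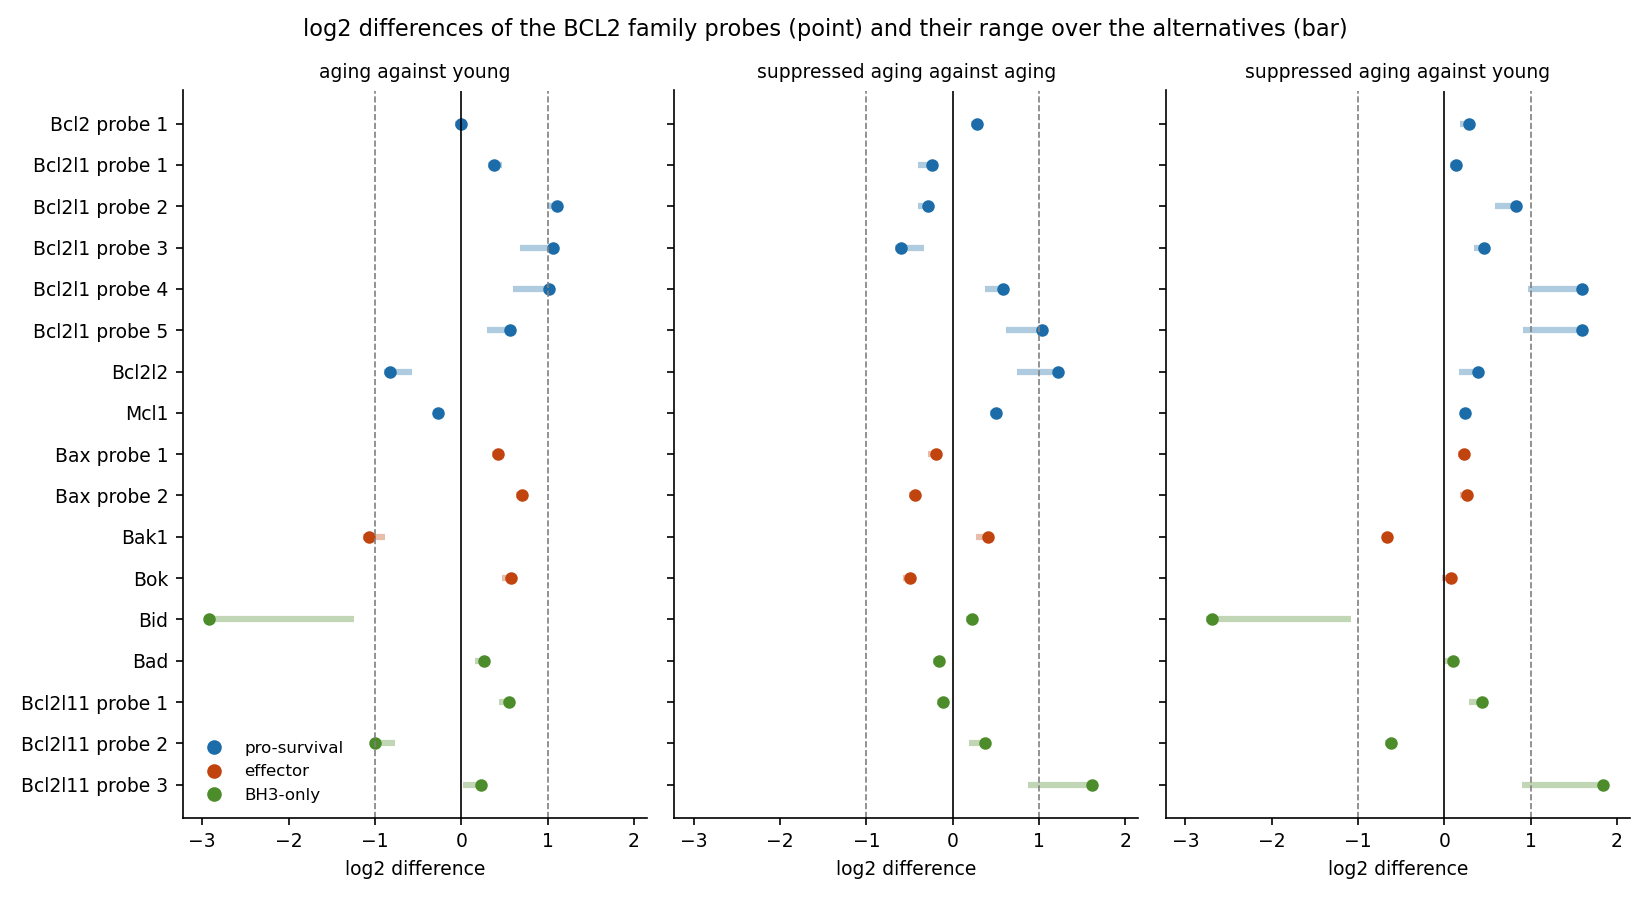
Log2 differences of the 17 BCL2 family probes measured on all arrays, in 3 comparisons. Points are the values reported, coloured by role, bars span the values under the processing alternatives and dashed lines mark 2-fold. Bid at -2.92 and -2.69 lies farthest from 0. All 5 Bcl2l1 probes are on the right of 0 in both comparisons with young blastocysts, and the bars of dim probes reach toward 0.

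How often a probe passes 2-fold depended on its level. In the comparison of aging with young blastocysts, 23.6%, 23.8%, 13.8% and 5.28% of the probes above background on both arrays passed it from the dimmest to the brightest of 4 bands of equal size. The 5 member probes in the brightest band, those of Mcl1, Bad, Bcl2l1 probe 1 and both Bax probes, had 0 past 2-fold in any comparison, beside 4.15% of that band after suppression against aging blastocysts and 5.28% against young ones. Bid lay in the dimmest band, where the middle 90% of differences between aging and young blastocysts ran from -1.65 to 1.39, and its -2.92 was outside that range, as 1 of 17 member probes. After suppression 2 of 17 were outside the range of their band against aging blastocysts, Bcl2l11 probe 3 and Bcl2l2, and 4 of 17 against young ones, Bid, Bcl2l1 probes 4 and 5 and Bcl2l11 probe 3. Replicate spots of 1 RNA on an array differed little. Of 300 probes spotted 10 times, those above background had a median standard deviation of 0.05 on each array. That covers the spotting and scanning of 1 labelled RNA and not the spread between pools of embryos.

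**Figure D3:**
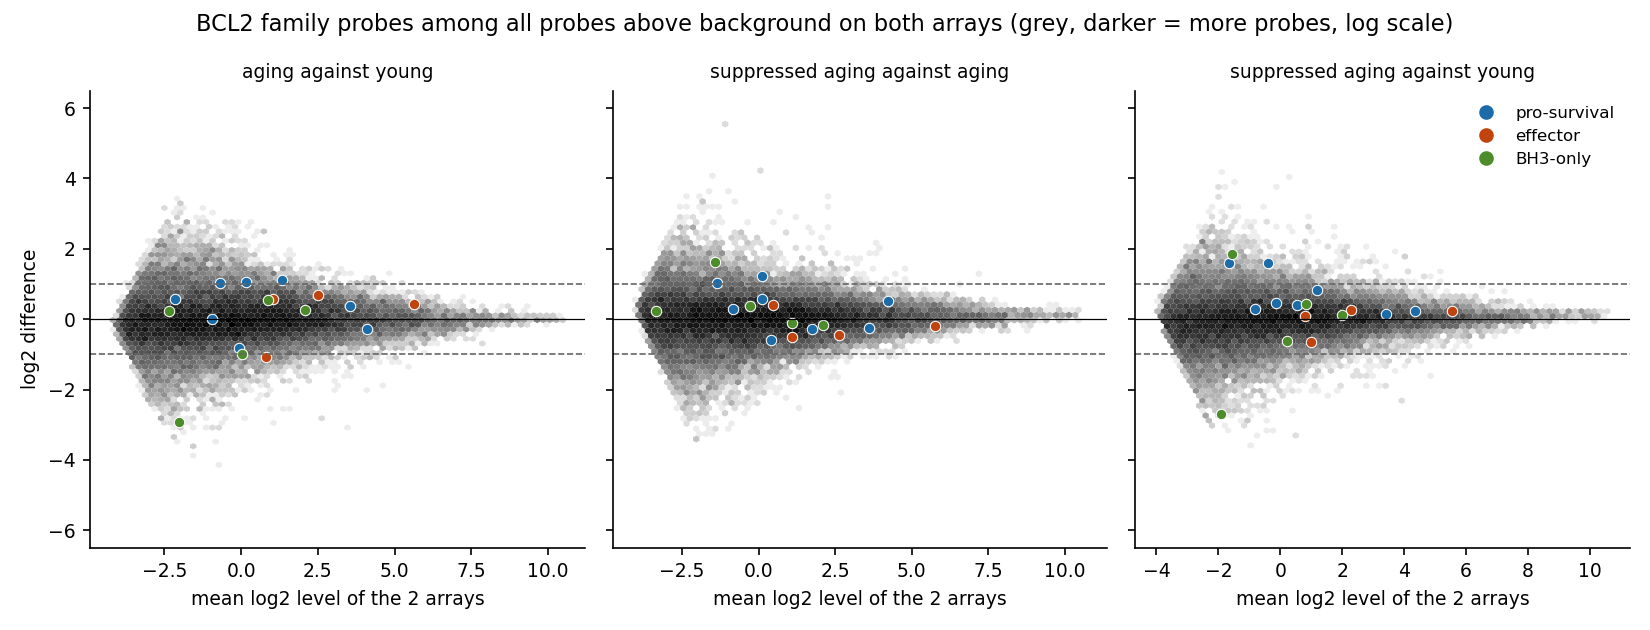
Log2 difference of each probe against its mean log2 level on the 2 arrays compared, for all probes above background on both (grey, darker for more probes) and for the BCL2 family (coloured by role). Differences spread more widely among dim probes, and most family probes sit inside the grey cloud, with Bid near its lower edge in both comparisons with young blastocysts.

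The balance of an effector and a guard was followed through their brightest probes, as a difference of differences. By the brightest probes, the difference of Bax minus that of Bcl2l1 was 0.04 for aging against young, 0.05 for suppressed aging against aging and 0.09 for suppressed aging against young blastocysts. This rests on Bcl2l1 probe 1, which had the smallest difference of the 5 probes between aging and young blastocysts. With the mean over the probes of each gene, Bcl2l1 was 0.83 and Bax 0.56 higher in aging than in young blastocysts, and 0.92 and 0.24 higher in suppressed aging than in young ones. Between suppressed aging and aging blastocysts these means differed by 0.10 for Bcl2l1 and -0.32 for Bax. For Bak1 minus Mcl1, each read by 1 probe, the values were -0.80, -0.10 and -0.90. Bak1 mRNA relative to Mcl1 mRNA was thus 1.75-fold lower in aging and 1.87-fold lower in suppressed aging than in young blastocysts. These ratios compare changes and say nothing of how much of either mRNA was there.

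Other members of the BCL2 family were compared by the brightest probe of each gene. Of 15 such genes 13 were on the array under a matching name, and 10 gave a difference between aging and young blastocysts, 7 higher and 3 lower, with a median of 0.53 and 3 past 2-fold. Over the brightest probe of every named gene, 19.1% passed 2-fold in that comparison, and for suppressed aging blastocysts 17.3% did against aging and 16.3% against young ones. Bmf, a BH3-only gene, read -2.61 in young, -1.57 in aging and -3.23 in suppressed aging blastocysts, with a difference of 1.05 between aging and young and of -1.67 between suppressed aging and aging blastocysts. Bcl2l15, about which less is known, was 1.47 higher in aging than young blastocysts. Bcl2l12, a more distant relative, read 1.50, 2.49 and -0.02, so the difference of suppressed aging blastocysts was -2.52 from aging and -1.52 from young ones. Bcl2l14 read 2.77, 2.75 and 3.83, 1.07 above aging and 1.06 above young blastocysts. Against aging blastocysts, 2 of 10 genes were higher and 8 lower after suppression, with 4 past 2-fold, and between suppressed aging and young blastocysts 4 of 9 were higher and 5 lower, with 2 past it. Over all probes, not 1 per gene, 48.2% were higher in aging than in young and 51.3% in suppressed aging than in aging blastocysts. Both of these comparisons use the same single aging array, with opposite sign, so opposite directions in them are not independent.

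The p53 targets Bbc3 (PUMA) and Pmaip1 (NOXA), both BH3-only genes, differed by less than 2-fold in all comparisons. Bbc3 read 2.47 in young, 2.31 in aging and 2.15 in suppressed aging blastocysts, and Pmaip1 read 2.49, 2.57 and 2.06. Bcl2l10, a pro-survival gene known for its expression in oocytes, read -1.96 in aging blastocysts and was below background on the other arrays. It was therefore at least 2.24 higher in aging than in young blastocysts, and its difference of suppressed aging from aging blastocysts was -1.98 or beyond. It is named outside the rule for naming genes, after its values were seen. Some transcripts typical of oocytes were also higher on the aging array. Of the 6 on the list, 3 were above background in young, 4 in aging and 2 in suppressed aging blastocysts, with a summed log2 level of -0.93, 0.78 and -0.81. Of 4 with a difference between aging and young blastocysts, 3 were past 2-fold higher: Zp2 by 2.35, Zp3 by 2.08 and Bmp15 by at least 2.95. Gdf9 differed by -0.06, and Zp1 and Mos were below background on all arrays. The part of oocyte transcripts in the family's differences was not tested.

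Downstream, 10 of 10 genes of the mitochondrial gate and of the proteins released through it could be compared. In aging blastocysts 8 were higher than in young ones and 2 lower, the median was 0.53 and 1 was past 2-fold, Htra2, which encodes a protease that leaves the mitochondrion and counters caspase inhibitors. Htra2 read 3.22 in young, 4.77 in aging and 3.35 in suppressed aging blastocysts, 1.55 higher in aging than young, with a difference of -1.43 after suppression. The 3 voltage-dependent channels of the outer membrane were higher in aging than in young blastocysts, Vdac1 by 0.64, Vdac2 by 0.13 and Vdac3 by 0.65. Cycs, which encodes cytochrome c, was 0.44 lower. After suppression 2 of the 10 genes were above and 8 below their aging level, and the median was -0.29. The aging array is shared with the comparison of aging and young blastocysts, so these counts are not independent. Between suppressed aging and young blastocysts 6 were higher and 4 lower, and Aifm1 (1.10 higher) and Endog (1.14 lower), both of which encode proteins that act in the nucleus in caspase-independent death, were past 2-fold.

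Of the apoptosome and caspase genes, 8 of 9 could be compared, and 4 were higher and 4 lower in aging than in young blastocysts, with 0 past 2-fold. Casp9, which the apoptosome activates, read 1.89 in young, 1.67 in aging and 1.65 in suppressed aging blastocysts. Casp8, which cuts BID, was below background on all 3 arrays, as was the death receptor gene Fas. After suppression Dffa and Dffb, an inhibitor and the nuclease it holds that cuts DNA in dying cells, were 1.26 and 1.09 higher than in aging blastocysts, and Casp6 was 1.12 higher than in young ones.

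Of the caspase inhibitors, 5 of 6 were higher and 1 lower in aging than in young blastocysts. Birc3 read -2.38, -2.20 and -0.42 and was 1.78 higher in suppressed aging than in aging and 1.95 higher than in young blastocysts. Cflar, which blocks caspase-8 at death receptors, was below background in young blastocysts and at least 1.32 higher in aging ones. It was at least 1.96 higher in suppressed aging than in young blastocysts. Birc5 (survivin), known for high levels in dividing cells, read 7.41, 7.57 and 7.68. Of the death receptor genes 3 of 5 were higher in aging than young blastocysts with 0 past 2-fold. After suppression 1 of 6 was past 2-fold against either. This was Tnfrsf1a, above background on the suppressed aging array alone, at least 1.3 above aging and 1.2 above young blastocysts. Of 9 genes upstream of the family 4 were higher and 5 lower in aging than in young blastocysts with 0 past 2-fold. Trp53, which encodes p53, read 3.02, 2.82 and 2.73. Its relative Trp73 was 1.03 lower in suppressed aging than in young blastocysts, the only 1 of the 9 past 2-fold in any comparison.

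**Figure D4:**
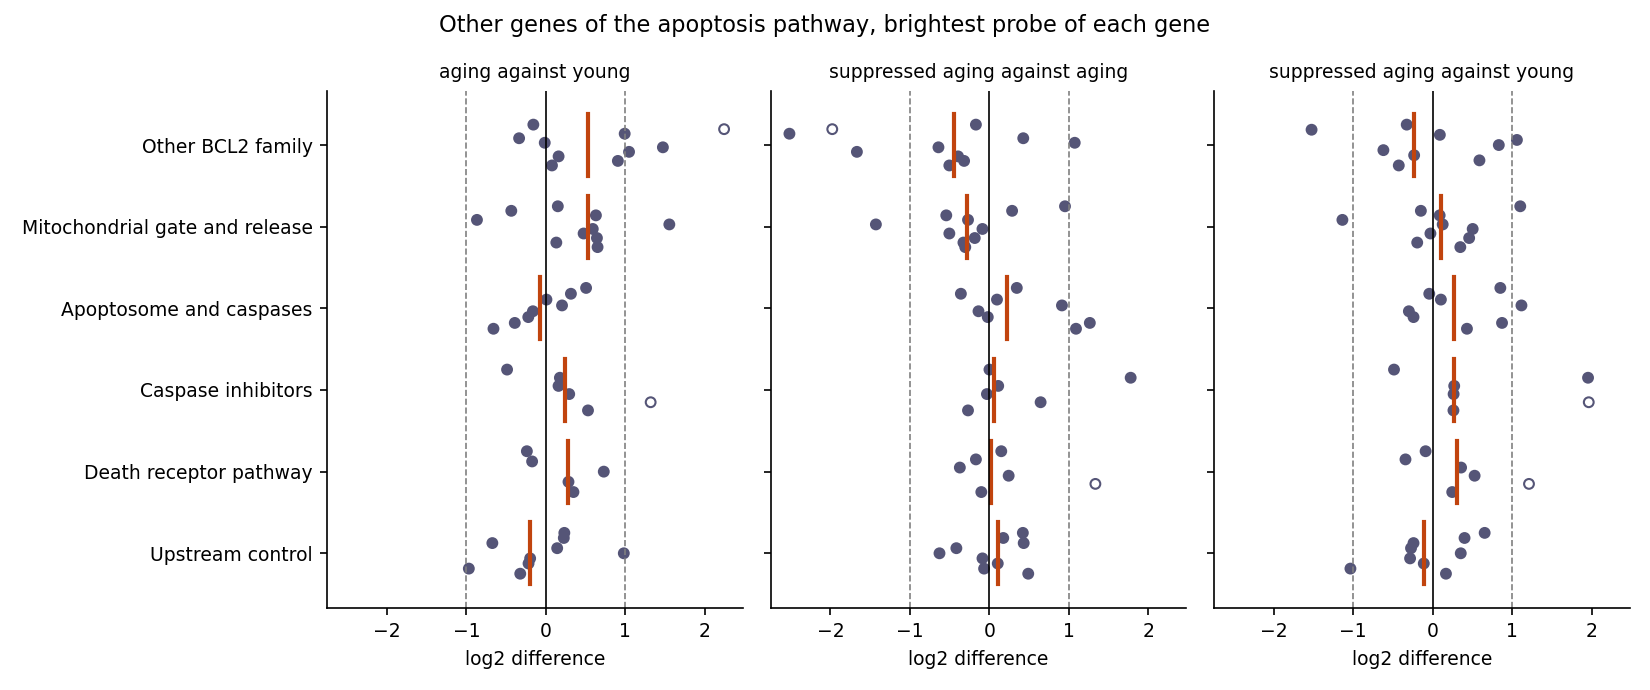
Log2 differences of other apoptosis genes, by the brightest probe of each gene, in 6 lists and 3 comparisons. Points are genes, open circles are the least difference that the detection limit allows, red bars are the list medians and dashed lines mark 2-fold. The lists of other BCL2 family genes and of the mitochondrial gate have medians of 0.53 for aging against young blastocysts and of -0.45 and -0.29 for suppressed aging against aging blastocysts, while most single genes stay within 2-fold. Both comparisons use the same single aging array, with opposite sign, so their opposite medians are not independent.

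Since each array read a whole pool, fewer cells of a type and less RNA per cell cannot be told apart. Between aging and young blastocysts the markers of inner cell mass and epiblast were higher in 6 of 6 genes, with a summed log2 level of 10.0 in young, 10.3 in aging and 10.2 in suppressed aging blastocysts, which was set by Nanog at 9.88, 10.1 and 10.0. Trophectoderm markers were lower in 6 of 8 genes, with summed levels of 8.98, 8.58 and 8.81, and the sums of primitive endoderm markers were 4.02, 4.29 and 4.02. Among the latter, Pdgfra was 1.28 higher and Sox17 differed by -1.53 between aging and young blastocysts. The sum over 15 housekeeping genes was 10.5 on each array, and 1 of them, Gusb, was past 2-fold between aging and young blastocysts, at -1.27. Of markers of cells that could cling to embryos, 4 of 7 for cumulus and granulosa cells and 4 of 4 for sperm were above background on all arrays, whereas Fshr, Has2 and Tnfaip6 of the former were below it on all. The cumulus and granulosa sum of 8.66, 8.55 and 8.78 was set by Foxl2 at 8.66, 8.54 and 8.77. Blood markers were above background for 3, 4 and 2 of 5 genes, with sums of 2.55, 2.12 and 1.17 set by Cd68 at 2.29, 1.38 and 0.80. Of the blood markers, 2 were higher and 2 lower in aging than in young blastocysts. The globin genes Hba-a1 and Hbb-b1 were higher, by 0.91 and at least 1.84, while Alas2 differed by -0.77 and Cd68 by -0.92. Ptprc, which marks white blood cells, was below background on all arrays. The part of cell makeup in the family's differences was not tested.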

How the data were processed

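Gene expression was measured on SurePrint G3 Mouse GE arrays with 1 pool of 30 blastocysts per condition. Spot intensities were deposited as Feature Extraction 12.0.3.1 gives them (version from the submitters' processing notes), with background subtracted, detrended, with a scanner error and not yet scaled across arrays. A second deposited table, also of intensities, equals these times 1 factor per array (3.46, 3.34 and 3.96 for young, aging and suppressed aging) over 30763 spots, with column medians of 175, 186 and 174. The sources name different labelling routes (a PCR-based amplification and a low-input linear kit); which was used is not visible in the files. All 3 arrays were on 1 slide in 1 scan.

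Control and outlier spots (100, 85 and 118 per array) were left out, the mean log2 intensity of the spots of a probe was taken, and each array was shifted so that its 75th percentile (intensities of 145, 155 and 122) lay at 0. No spot was saturated, and 56591 probes had a value on all 3 arrays. Depth on arrays is signal over background: 28788 probes were above it on all 3 arrays. Where only 1 array of a pair was above background, the difference was taken against the higher of the detection limit and the dim probe's own level, and is a bound. The scanner error of a difference combines the deposited errors of both spots. These errors are assigned by the software to single spots and were 0.14 on every array for the brightest member probes, so they are not a measured spread. The array design names the mm9 build, and names came from a RefSeq table of GRCm38.p6, which named 33759 probes; that table gave the promoters too.

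With 1 array per condition no test was made. All 10 members are named with every probe. From each of 6 related lists (56 genes) and each comparison, genes above background on both arrays and past 2-fold were named, up to 4 by size; other genes of those lists were named as reference points of the pathway, after their values were seen, and 1 item is not reported here. The members and lists were chosen with earlier results of these data known. The steps were tested on simulated data. Alternatives were normexp background correction (offset 50), quantile normalization, other centrings, the authors' values, outlier spots kept, stricter and no filters, 1 value per gene, and 5-fold. Python 3.11.15, NumPy 2.4.6, pandas 2.3.3, Matplotlib 3.10.9, R 4.3.3 and limma 3.58.1 were used.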

Additional observations from a re-analysis of the deposited data

How the results depend on the processing

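None of the 17 probes measured on all arrays changed direction by more than its scanner error under any of 8 alternatives that give single probes a value. Of these, only normexp background correction and quantile normalization can move the member probes by different amounts. The others leave them unchanged or shift them alike. Bcl2 between aging and young blastocysts ranged from -0.08 to 0.05 and Bok between suppressed aging and young blastocysts from -0.03 to 0.08, and these were the only ones to change sign. Counts past 2-fold are given first for aging from young, next for suppressed aging from aging and last for suppressed aging from young blastocysts, against 5, 3 and 4 as reported. They were 1, 0 and 1 under normexp background correction (Bid in both cases), with medians of 0.29, 0.15 and 0.19. With the brightest probe per gene they were 2, 1 and 1, with medians of 0.13, 0.055 and 0.18, and with 1 mean value for each gene they were also 2, 1 and 1, with a median of -0.037 for aging against young. At 5-fold they were 1, 0 and 1. Without the Bcl2l1 probes (chosen after seeing the data) they were 2, 2 and 2, with a median of 0.11 for aging against young. Centred on 15 housekeeping genes the median for suppressed aging against aging was 0.15 and the count 2, since Bcl2l1 probe 5 was at 0.96. Quantile normalization and centring on the median of detected probes put 3 probes higher and 3 lower in aging than young blastocysts, and the authors' values 2 higher and 3 lower, against 3 and 2 as reported. Without a filter on dim probes the median of all probes shifted to -0.12 and 0.17 in the first comparisons. Fewer values enter by construction where probes are merged or left out; the cause of the other shifts was not tested. The alternative that takes probes named for a member in the raw files was not run, since these hold no gene names. No paired analysis was possible because there was only 1 array for any condition, which also left no replicate to omit. Bid, near the detection limit in both aging pools, ranged from -2.98 to -1.24 for aging against young blastocysts. The value of -1.24 came from normexp background correction, and without it the range was -2.98 to -2.86. Normexp was run with an offset only, so the part of the correction and that of its offset were not tested apart.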
